A study of Mus musculus with 7 samples.

Results

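The nuclear genes of respiratory complexes II, III and IV, together with cytochrome c, were examined in liver RNA from a mouse model of liver cancer. The set holds 30 genes, chosen by name from a count table of 24421 gene symbols: 4 subunits of complex II, 9 of complex III, 15 of complex IV, cytochrome c itself and Cox7a2l, which helps to join complexes III and IV into supercomplexes. All 30 were found. The samples were livers of 7 C57BL/6 mice aged 36 weeks. The 4 animals labelled Prkciflox/floxAlbCre carry Prkci alleles flanked by loxP sites and a Cre recombinase driven by the albumin promoter, which is active in hepatocytes, and are called AlbCre 1 to 4 here. The 3 animals labelled Prkciflox/flox carry the same floxed alleles without Cre and are called controls 1 to 3. Every mouse, controls included, had been injected intraperitoneally with the hepatocarcinogen diethylnitrosamine at 25 mg/kg when 2 weeks old and ate 60% fat diet for 32 weeks, starting 4 weeks after birth. Whether tumour or surrounding liver was taken is not stated in the labels.

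Complex II, succinate dehydrogenase, passes electrons from the citric acid cycle to ubiquinone. Complex III hands them on to cytochrome c, a small mobile carrier, and complex IV, cytochrome c oxidase, passes them to oxygen. Complexes III and IV also pump protons, and the gradient drives ATP synthase. All subunits of complex II are nuclear-encoded, whereas complexes III and IV combine nuclear subunits with mitochondrially encoded catalytic ones, which were not analysed here. Several complex IV subunits exist as a common form, found in liver, and a form typical of other tissues such as heart and skeletal muscle. Prkci encodes the atypical protein kinase C lambda/iota, and the title of the series names oxidative phosphorylation as a process it represses, so the comparison asks whether these transcripts differ between AlbCre livers and controls.

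Poly(A) RNA was sequenced and the counts are reads per gene. Gene-assigned reads ran from 28695455 to 49203615 in AlbCre libraries and from 23807580 to 26556486 in controls. Levels are given as CPM, the reads of a gene scaled to a common library size with TMM factors. Prkci had 30.01, 30.7, 28.2 and 28.7 CPM in AlbCre 1 to 4, against 23.3, 20.4 and 27.7 CPM in controls 1 to 3, with a log2 fold change of 0.30 (edgeR, SE 0.12, adjusted p = 0.214). The count was thus not lower in the libraries labelled AlbCre, and because it includes reads outside any deleted part it does not check the labels, so that every direction below rests on the labels. The 6 hepatocyte markers summed to 53246 to 65842 CPM in AlbCre libraries and to 70114 to 100635 CPM in controls, a sum made up mostly of Alb. Apoa1 was lower in every AlbCre library, at 3699 to 4955 CPM, than in any control, at 5041 to 9000 CPM. Ttr, at 2714 to 3357 CPM in AlbCre and 2816 to 3459 CPM in controls, and Cps1, at 2864 to 5256 CPM in AlbCre and 2005 to 4463 CPM in controls, overlapped between the groups. Alb, Tat and Hnf4a overlapped too. The median log2 fold change of the 6 markers was -0.30. Controls 1 and 2 stood apart: the 26 acute phase genes summed to 201055 and 197738 CPM there, against 45304 to 55204 CPM in AlbCre libraries and 45694 CPM in control 3. The 6 neutrophil markers in the table summed to 306 and 74.5 CPM in these controls, against 12.4 to 15.96 CPM in AlbCre libraries and 15.3 CPM in control 3, and the part of either in the results was not tested. In whole tissue, fewer cells of a type and less RNA per cell cannot be told apart.

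The promoters of a few members are shown here because nuclear respiratory genes are known targets of shared factors such as NRF1, GABP (an ETS factor) and the estrogen-related receptors. Sdha and Sdhd, both of complex II, and Uqcrc1 of complex III were taken because they hold a match to the NRF1 motif. Cox6a1 of complex IV also holds NRF1 matches, and its window is not shown. The windows span the annotated start and are read along the gene's own strand, from RefSeq on GRCm38.p6, at chr13:74350191-74350490 on the minus strand for Sdha, chr9:50603800-50604099 on the minus strand for Sdhd and chr9:108936398-108936697 on the plus strand for Uqcrc1. Capitals mark motif matches, which do not overlap in these windows.
Sdha: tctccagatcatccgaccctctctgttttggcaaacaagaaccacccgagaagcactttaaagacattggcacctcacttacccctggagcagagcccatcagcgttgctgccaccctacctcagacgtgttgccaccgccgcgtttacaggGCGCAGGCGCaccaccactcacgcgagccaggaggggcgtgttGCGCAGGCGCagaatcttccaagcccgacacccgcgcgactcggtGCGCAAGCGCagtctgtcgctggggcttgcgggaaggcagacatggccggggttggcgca
Sdhd: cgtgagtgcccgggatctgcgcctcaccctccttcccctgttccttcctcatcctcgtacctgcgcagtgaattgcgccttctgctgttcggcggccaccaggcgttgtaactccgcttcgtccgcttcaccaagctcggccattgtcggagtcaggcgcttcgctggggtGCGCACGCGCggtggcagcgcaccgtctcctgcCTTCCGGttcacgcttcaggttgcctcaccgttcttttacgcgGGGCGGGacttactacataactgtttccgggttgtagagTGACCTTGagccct
Uqcrc1: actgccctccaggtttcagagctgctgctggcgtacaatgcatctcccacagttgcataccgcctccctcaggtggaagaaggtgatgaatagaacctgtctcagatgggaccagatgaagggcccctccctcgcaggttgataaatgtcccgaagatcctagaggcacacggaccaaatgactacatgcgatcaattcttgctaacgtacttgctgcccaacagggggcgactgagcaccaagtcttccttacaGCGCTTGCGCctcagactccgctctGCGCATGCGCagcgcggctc
Sdha holds 3 NRF1 matches, at 98, 55 and 10 bases before the start. Sdhd holds 1 NRF1 match, 1 ETS match, 1 SP1 match and 1 match for the estrogen-related receptors. Uqcrc1 holds 2 NRF1 matches, both after the start.

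Promoter windows were listed for 21 of the 30 genes, 19 of them among the genes tested. Searched on both strands, the NRF1 motif (GCGC, any 2 bases, GCGC) was in 4 of the 19 (21.1%), against 13.0% of 10385 promoters of tested genes. The ETS motif CCGGAAG was in 7 of 19 (36.8%), against 17.3%. The estrogen-related receptor motif CAAGGTCA was in 1 (5.26%), against 1.10%, and the SP1 motif GGGCGGG in 4 (21.1%), against 46.0%. The YY1 motif AAGATGGCG was in none of the 19 windows and in 3.07% of the background. The 7 genes with an ETS match were Sdhb, Sdhd, Uqcrh, Uqcr11, Cox6a1, Cox6b1 and Cox8a. A match is a run of letters and not a binding site, and the counts are a description.

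No gene of complexes II, III and IV passed the test for a difference between AlbCre livers and controls, but nearly all were slightly higher in AlbCre. Of the 30 genes, 26 had enough reads to be tested, and 25 of these 26 had a log2 fold change above 0 (96.2%), against 48.9% of all 13638 genes tested. Their median log2 fold change was 0.24, against -0.01 over all genes tested. In edgeR's quasi-likelihood test with Benjamini-Hochberg adjustment over all genes, 0 of the 26 passed 0.05, where 2.21% of all genes did, 1.26% higher and 0.953% lower. DESeq2 called 0 of the 26 and 8.51% of all genes, and limma-voom called 0 of the 26 and 1% of all genes. At an edgeR adjusted p under 0.10, 0 of the 26 passed, against 5.62% of all genes. At an unadjusted p under 0.05, 8 of the 26 were higher (30.8%), against 9.34% of all genes, and 0 were lower, against 8.67%. The 8 were Sdhc, Uqcrc1, Uqcrfs1, Uqcr10, Cycs, Cox5b, Cox6a1 and Cox7c. The groups did not overlap, with every AlbCre library above every control, for 7 of the 26 (26.9%), against 8.62% of all genes. Standard errors of the log2 fold changes lay between 0.10 and 0.17 for 25 of the 26, the exception being the scarce Cox7a1 at 0.58. The count of 8 was 1 when a trend on transcript length was removed from each library, 3 with an acute phase score as covariate, and 1 with control 3 as the lone control. Leaving out 1 library, it was 2 without control 1 or control 2, 3 without AlbCre 2 or AlbCre 3, 5 without AlbCre 4, 10 without control 3 and 11 without AlbCre 1. The median log2 fold change stayed positive in those fits, between 0.16 and 0.28.

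**Figure D1:**
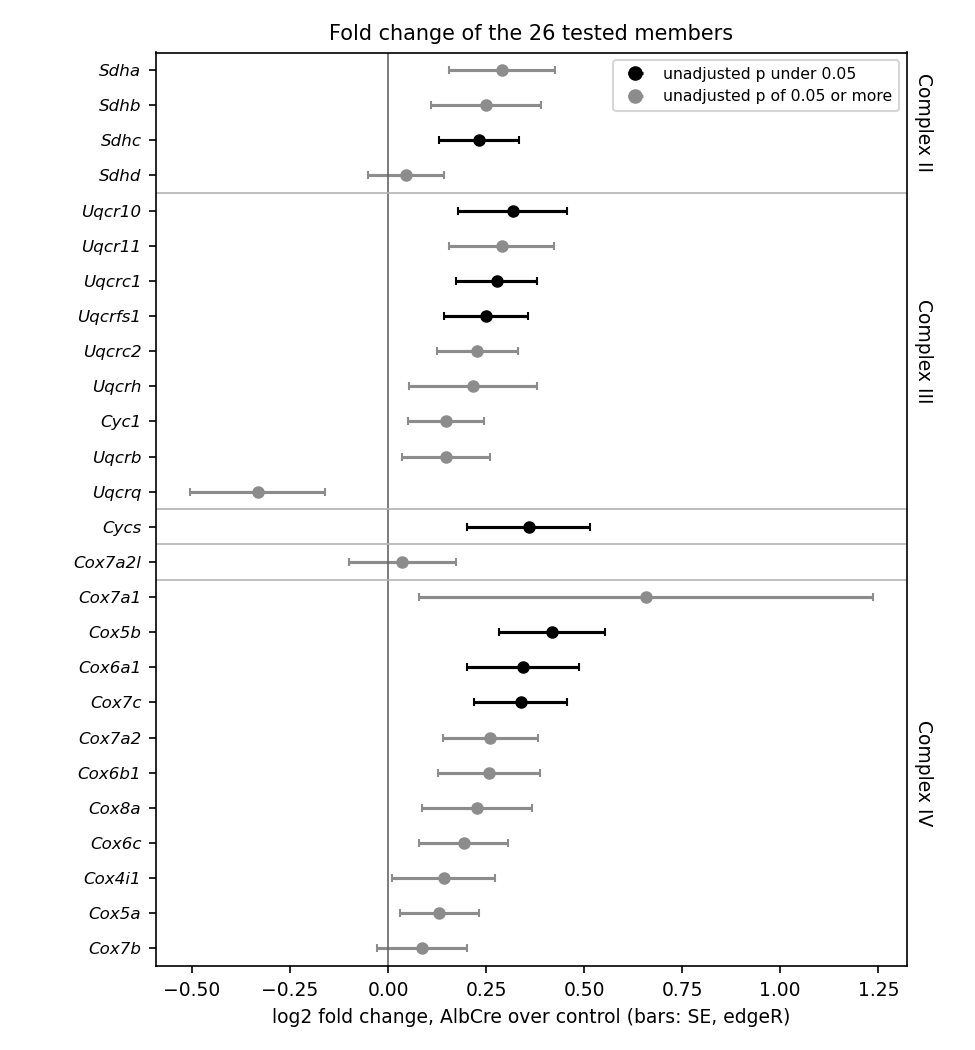
log2 fold change (AlbCre over control) of the 26 tested genes, grouped by complex, with bars for the SE of the edgeR fit. Uqcrq at -0.33 is the only point left of 0, Cox7a1 has the widest bar (SE 0.58), and no gene passed at an adjusted p under 0.05.

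By complex, the median log2 fold change was 0.24 for the 4 genes of complex II, 0.23 for the 9 of complex III and 0.26 for the 11 tested genes of complex IV. Genes above 0 numbered 4 of 4 in complex II, 8 of 9 in complex III and 11 of 11 in complex IV. The medians of the 3 complexes were closer to each other than the SE of any single gene.

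Complex II was led by Sdha, the flavoprotein that oxidises succinate and the most abundant gene of the whole set. Sdha had 497, 554, 538 and 560 CPM in AlbCre 1 to 4, against 414, 400 and 505 CPM in controls 1 to 3. AlbCre 1 lay below control 3, so the groups overlapped, and the log2 fold change was 0.29 (edgeR, SE 0.14, adjusted p = 0.298). Control 3, without the acute phase level of the other controls, was the highest control for Sdha. Without control 3 the log2 fold change was 0.40 (edgeR adjusted p = 0.0583), the smallest adjusted p of any of the 26 genes in any fit.

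Sdhc, one of the membrane anchors that bind ubiquinone, had 180, 177, 195 and 178 CPM in AlbCre 1 to 4, against 146, 153 and 168 CPM in controls 1 to 3. All AlbCre libraries lay above all controls, with a log2 fold change of 0.23 (edgeR, SE 0.10, adjusted p = 0.271). Sdhd, the other membrane anchor, averaged 183 ± 7.503 CPM (SD, n = 4) in AlbCre and 177 ± 5.28 CPM (SD, n = 3) in controls, a log2 fold change of 0.05 (edgeR, SE 0.10, adjusted p = 0.848). The difference for Sdhd was smaller than its SE. Sdhb, the iron-sulfur subunit, averaged 156 ± 27.0 CPM (SD, n = 4) in AlbCre and 131 ± 6.98 CPM (SD, n = 3) in controls, and its AlbCre values spread widely, from 124 CPM in AlbCre 1 to 188 CPM in AlbCre 3.

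In complex III the core proteins Uqcrc1 and Uqcrc2 and the Rieske protein were higher in every AlbCre library, although none passed the test. Uqcrc1, a core subunit (ENSMUSG00000025651.14, chromosome 9 from 108936633 to 108949623 on mm10, plus strand), had 184, 199, 209 and 212 CPM in AlbCre 1 to 4. The controls had 171, 158 and 169 CPM. Every AlbCre library was above every control, and the log2 fold change was 0.28 (edgeR, SE 0.10, adjusted p = 0.198).

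Uqcrfs1, the Rieske iron-sulfur protein, had 191, 211, 194 and 210 CPM in AlbCre 1 to 4, against 164, 159 and 186 CPM in controls. The second core subunit Uqcrc2, the most abundant gene of complex III, had 235, 241, 233 and 234 CPM in AlbCre 1 to 4, against 197, 190 and 217 CPM in controls. Neither gene's groups overlapped. The log2 fold changes were 0.25 (edgeR, SE 0.11, adjusted p = 0.256) for Uqcrfs1 and 0.23 (edgeR, SE 0.10, adjusted p = 0.286) for Uqcrc2. Exons of Uqcrc2 overlap those of Pdzd9 on the other strand, and since the strand setting of the counting is not given in the sources used here, reads of the pair may be mixed. Cyc1, the cytochrome c1 that passes electrons to cytochrome c, averaged 130 ± 9.26 CPM (SD, n = 4) in AlbCre and 117 ± 4.15 CPM (SD, n = 3) in controls, with overlapping groups.

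Among the small supernumerary subunits of complex III, Uqcr10, Uqcr11, Uqcrh and Uqcrb had log2 fold changes of 0.32, 0.29, 0.22 and 0.15 with overlapping groups. Uqcrq, a subunit of the ubiquinone-binding region, was the exception of the whole set, named here after its values were seen. It had 113, 142, 187 and 131 CPM in AlbCre 1 to 4, against 166, 212 and 165 CPM in controls. AlbCre 1, 2 and 4 lay below every control and AlbCre 3 lay above 2 of the controls. The log2 fold change was -0.33 (edgeR, SE 0.17, adjusted p = 0.347), and without AlbCre 3 it was -0.49 (edgeR adjusted p = 0.166). Per kilobase of transcript Uqcrq had the highest level in complex III, 285 CPM per kb in AlbCre and 359 CPM per kb in controls.

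Cytochrome c, encoded by Cycs, had 20.7, 23.9, 30.6 and 19.8 CPM in AlbCre 1 to 4. The controls lay close together at 18.9, 18.8 and 17.8 CPM. No AlbCre library was below a control, although AlbCre 4 and control 1 were within 1 CPM, and the log2 fold change was 0.36 (edgeR, SE 0.16, adjusted p = 0.265). Of the 75-nt windows of annotated Cycs transcripts, 26.1% also occur in transcripts of 5 other genes, so its level is uncertain. Cox7a2l had 49.9, 50.6, 58.9 and 48.4 CPM in AlbCre 1 to 4, against 60.6, 50.4 and 41.0 CPM in controls. Its controls spanned the AlbCre range, with a log2 fold change of 0.04 (edgeR, SE 0.14, adjusted p = 0.922) that was -0.10 without control 3 and -0.028 without AlbCre 3.

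**Figure D2:**
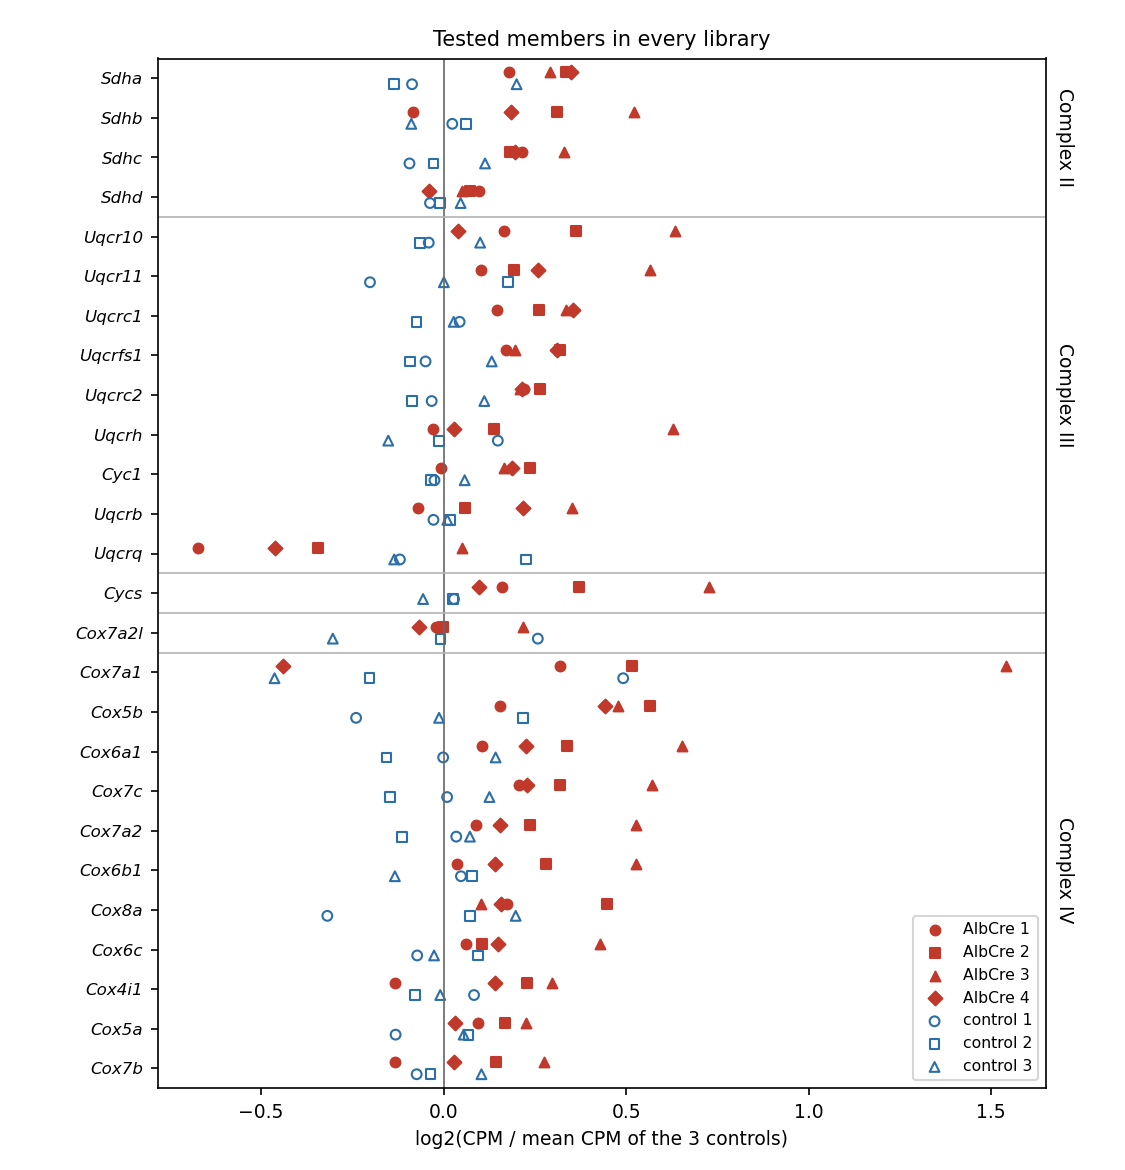
log2 of CPM over the control mean for the 26 tested genes, with filled symbols for AlbCre 1 to 4 and open symbols for controls 1 to 3. AlbCre 3 (filled triangles) lies farthest right for most small subunits, while Sdha, Uqcrc1, Uqcrc2 and Uqcrfs1 show tighter AlbCre values, and Uqcrq runs the other way.

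In complex IV the largest differences among well expressed genes were in Cox5b, Cox6a1 and Cox7c, none past the test. Cox5b, a zinc-binding subunit on the matrix side (ENSMUSG00000061518.11, chromosome 1 from 36691449 to 36693681 on mm10, plus strand), had 62.0, 82.5, 77.6 and 75.6 CPM in AlbCre 1 to 4. In controls it had 47.2, 64.7 and 55.2 CPM. AlbCre 1 lay below control 2, and the log2 fold change was 0.42 (edgeR, SE 0.13, adjusted p = 0.140), the smallest adjusted p of the 26 genes with all libraries.

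Cox7c, a small membrane subunit (ENSMUSG00000017778.14, chromosome 13 from 86044816 to 86046904 on mm10, minus strand), had 41.5, 44.8, 53.3 and 42.0 CPM in AlbCre 1 to 4, against 36.1, 32.4 and 39.2 CPM in controls. Its groups did not overlap, with a log2 fold change of 0.34 (edgeR, SE 0.12, adjusted p = 0.170). Cox4i1, the most abundant gene of complex IV and a subunit that binds ATP, had 242, 311, 326 and 293 CPM in AlbCre 1 to 4, against 281, 251 and 264 CPM in controls. AlbCre 1 was the lowest of all 7 libraries for Cox4i1, and the log2 fold change was 0.14 (edgeR, SE 0.13, adjusted p = 0.625). Cox5a, the partner of Cox5b on the matrix side, averaged 143 ± 8.36 CPM (SD, n = 4) in AlbCre and 131 ± 9.89 CPM (SD, n = 3) in controls. Cox6c and Cox7b had log2 fold changes of 0.19 and 0.09.

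The tissue isoforms of complex IV were near the limit of detection in both groups. Cox7a1, the heart and muscle form of subunit 7a, was the only one with enough reads to be tested. It had 0.673, 0.771, 1.57 and 0.398 CPM in AlbCre 1 to 4, against 0.759, 0.469 and 0.392 CPM in controls, with AlbCre 2 just above the highest control and AlbCre 3 well above it. The log2 fold change was 0.66 (edgeR, SE 0.58, adjusted p = 0.606) and was 0.20 without AlbCre 3. The common form Cox7a2 had 94.2, 104, 128 and 98.5 CPM in AlbCre 1 to 4, against 90.7, 81.9 and 93.1 CPM in controls. Per kilobase, Cox7a1 made up 1.19% of the pair in AlbCre and 0.906% in controls.

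Summed over libraries, Cox4i2, the lung and hypoxia form of subunit 4, had 5 reads in AlbCre and 2 in controls. Cox6a2, the heart and muscle form of subunit 6a, had 22 reads in AlbCre and 5 in controls, all 5 in control 1. For Cox6b2, a testis form, there were 41 reads in AlbCre and 24 in controls, of which 19 in control 3. Cox8b, the heart and muscle form of subunit 8, had 3 reads in AlbCre and 9 in controls, all 9 in control 3. A count of 0 allows up to 3 reads, equal to 0.0610 to 0.105 CPM in AlbCre libraries and 0.113 to 0.126 CPM in controls, counting error only, so single libraries without reads do not show absence.

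The common partners were abundant in every library. Cox6a1 had 126, 148, 185 and 137 CPM in AlbCre 1 to 4, against 117, 105 and 130 CPM in controls, with a log2 fold change of 0.35 (edgeR, SE 0.14, adjusted p = 0.240). Cox6b1 had 119, 141, 167 and 128 CPM in AlbCre 1 to 4, against 120, 122 and 106 CPM in controls. Cox8a had 108, 131, 103 and 107 CPM in AlbCre 1 to 4, against 77.0, 100.9 and 110 CPM in controls. For Cox6a1, Cox6b1 and Cox8a, 1 or more AlbCre libraries fell within the control range.

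The log2 ratio of tissue to common form was compared for the 4 pairs with more than 3 reads of the tissue form in a library. The difference of AlbCre minus control was 0.25 for Cox7a1 to Cox7a2, 0.66 for Cox6a2 to Cox6a1, 0.37 for Cox6b2 to Cox6b1 and -1.47 for Cox8b to Cox8a. None passed an exact two-sided permutation test over the 7 libraries, with Benjamini-Hochberg adjusted p = 0.800 for all 4 pairs, in a design whose smallest possible p is 0.0571. With a prior count of 2 in place of 0.5 the Cox6a2 and Cox6b2 differences were -0.09 and -0.24, so their direction rests on the handling of a few reads.

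**Figure D3:**
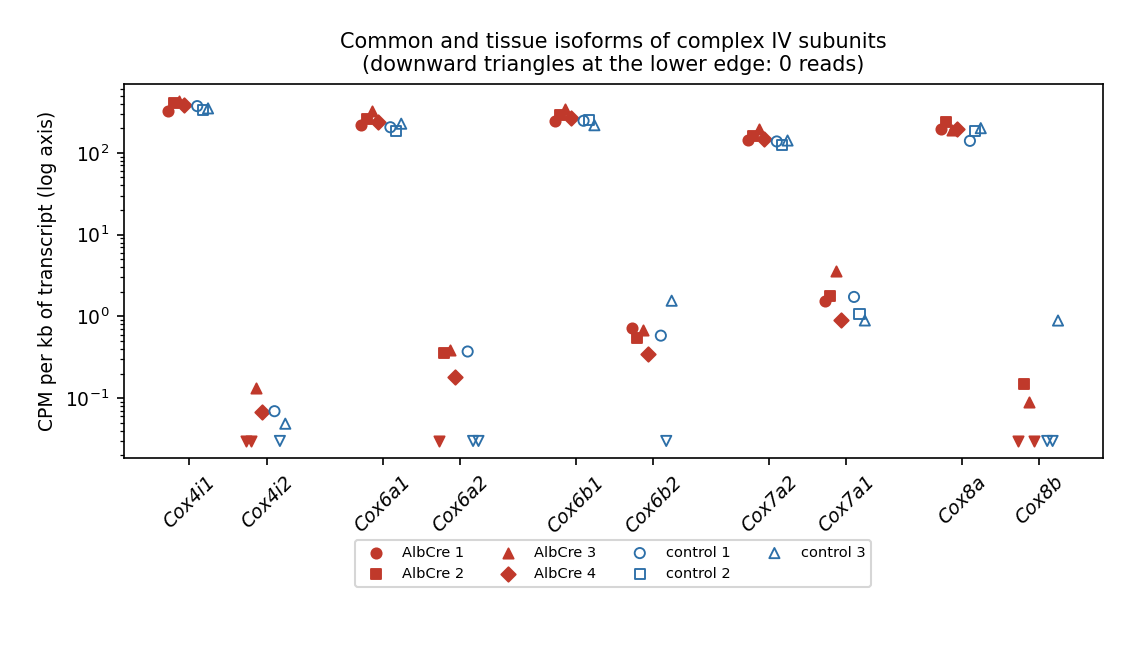
CPM per kilobase of transcript on a log axis for the common and tissue forms of 5 complex IV subunits, with filled symbols for AlbCre and open symbols for controls. Common forms lie above 100 in every library and tissue forms at about 4 or less, with several libraries at 0 reads.

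Markers of other tissues were read beside the tissue forms. The 18 skeletal and cardiac muscle markers summed to 1.44 to 5.72 CPM in AlbCre libraries and 2.60 to 6.28 CPM in controls, and AlbCre 3, the library with the most Cox7a1, had 5.72 CPM. Controls 1 and 2 had 6.28 and 5.44 CPM of these markers, with Cox7a1 at 0.759 and 0.469 CPM. The 12 smooth muscle and pericyte markers summed to 68.6 to 89.9 CPM in AlbCre libraries and 93.4 to 106 CPM in controls. Of these, 9 were tested, with a median log2 fold change of -0.03, and 0 passed in edgeR. Abcc9 and Rgs5 were lower in every AlbCre library than in any control, while the others, Acta2 and Tagln included, overlapped between the groups. Among the 8 adipocyte markers, which summed to 25.4 to 92.01 CPM in AlbCre and 20.2 to 31.1 CPM in controls, Plin1 and Ucp1 were at 0 in all libraries, while Cidea had 60.5 CPM in AlbCre 2, 3.85 to 8.996 CPM in the other AlbCre libraries and 0 to 15.9 CPM in controls, and Fabp4 had 15.6 to 33.0 CPM in AlbCre and 11.7 to 30.7 CPM in controls. Of 6 testis germ cell markers, 5 were at 0 in all libraries.

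Levels between genes were compared per kilobase of transcript. Over the well expressed subunits the median was 143 CPM per kb in AlbCre and 129 in controls for complex II, 153 and 125 for complex III, and 197 and 171 for complex IV. Within complex IV levels ran from Cox7c, at 84.1 CPM per kb in AlbCre and 66.5 in controls, to Cox4i1, at 388 in AlbCre and 351 in controls. Within complex II the range was 2.02-fold in AlbCre, from Sdhc to Sdha. Annotated transcripts of 12 of the 30 genes share 75-nt windows with other genes, pseudogenes or genes on the opposite strand, up to 29.1% of windows for Uqcrb and 20.8% for Cox7c. How reads that match several places were counted is not given in the sources used here, but the near-identical globin genes Hba-a1, Hba-a2, Hbb-bs and Hbb-bt were listed at 0 in every library. Levels of the genes that share windows are therefore uncertain.

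On the average over the 26 tested genes, the AlbCre libraries differed among themselves more than the controls did, although Sdha, Uqcrc2, Cox7a2l and Cox8a were among the genes whose SD was larger in controls. Averaged over the 26 tested genes, the log2 level relative to the control mean was 0.06 in AlbCre 1, 0.23 in AlbCre 2, 0.40 in AlbCre 3 and 0.13 in AlbCre 4, against -0.02, -0.00 and 0.02 in controls 1 to 3. Over all tested genes the same average was 0.05, 0.02, 0.01 and 0.01 in AlbCre 1 to 4, against 0.01, 0.00 and -0.01 in controls 1 to 3. Less that average, an alternative added after the data were seen, the 26 genes stood at 0.01, 0.21, 0.39 and 0.13 in AlbCre 1 to 4, against -0.03, -0.00 and 0.03 in controls 1 to 3. AlbCre 2, 3 and 4 were then above every control, and AlbCre 1 was below control 3. AlbCre 3 was the highest AlbCre library for 18 of the 26 genes and AlbCre 1 the lowest for 17. Against every control, AlbCre 1 was higher for 10 of the 26 genes, AlbCre 2 for 23, AlbCre 3 for 23 and AlbCre 4 for 17. Without AlbCre 3 the median log2 fold change was 0.17 in place of 0.24, with 3 genes higher and 1 lower at an unadjusted p under 0.05, and without AlbCre 1 it was 0.28, with 11 higher.

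**Figure D4:**
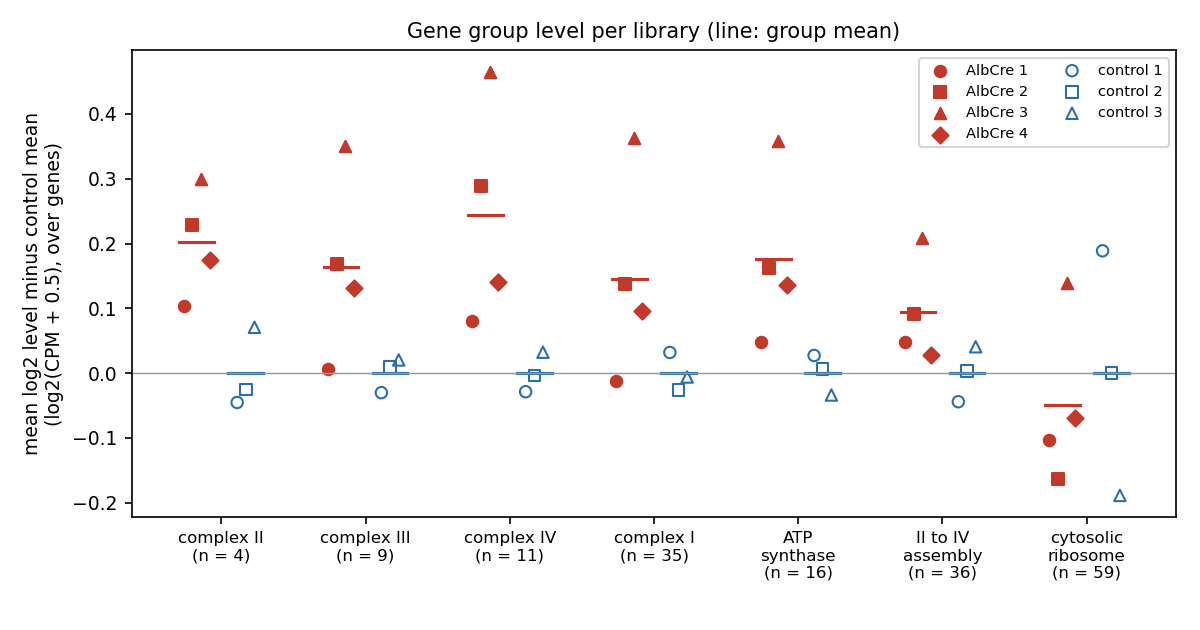
Mean log2 level of each gene group relative to the control mean (y axis, log2(CPM + 0.5)), by library, with a line at each group mean and n the genes tested. AlbCre 3 (filled triangle) is the highest library for complexes I to IV and ATP synthase, while the cytosolic ribosomal proteins spread as widely among controls as among AlbCre libraries.

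The complexes were also read side by side in each library. Taken as mean log2 levels relative to controls, complex II was at 0.10, 0.23, 0.30 and 0.17 in AlbCre 1 to 4, against -0.05, -0.03 and 0.07 in controls 1 to 3. Complex III was at 0.01, 0.17, 0.35 and 0.13 in AlbCre 1 to 4, against -0.03, 0.01 and 0.02 in controls, so AlbCre 1 fell among the controls. Complex IV was at 0.08, 0.29, 0.47 and 0.14 in AlbCre 1 to 4, against -0.03, -0.00 and 0.03 in controls. Less the average over all tested genes, AlbCre 1 was below control 3 in every complex, at 0.06 against 0.08 for complex II, -0.04 against 0.03 for complex III and 0.03 against 0.04 for complex IV. The ratio of complex IV to complex II, which library scaling does not affect, was -0.02, 0.06, 0.17 and -0.03 on the log2 scale in AlbCre 1 to 4, against 0.02, 0.02 and -0.04 in controls. That of complex III to complex II was -0.10, -0.06, 0.05 and -0.04 in AlbCre 1 to 4, against 0.02, 0.04 and -0.05 in controls. Both ratios overlapped between the groups.

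Within the AlbCre group the excess of AlbCre 3 went with short transcripts. Across the 26 genes, AlbCre 3 minus the mean of the other AlbCre libraries correlated with log2 transcript length at Pearson's r = -0.48 and Spearman's rho = -0.59, as a description over genes of the same libraries. Without the scarce Cox7a1, r was -0.43 and rho -0.54. Over the 6797 tested genes with a mean log2 CPM above 4, r was -0.33 and rho -0.40. Sdha (2900 nt), Uqcrc2 (1896 nt) and Uqcrfs1 (1363 nt) had an excess of 0.00, -0.02 and -0.07, whereas Uqcrq (504 nt) and Cox6a1 (571 nt) had 0.54 and 0.43. Cycs, at 3123 nt with 0.51, and Cox8a, at 550 nt with -0.16, lay off this pattern. AlbCre 3 also had the lowest share of reads in no feature among AlbCre libraries, 9.81% against 12.9% to 15.2%, and the highest mean log2 level of the 59 tested cytosolic ribosomal protein genes, 0.14 against -0.16 to -0.07. In controls 1 to 3 that share was 8.62%, 11.4% and 16.3% and the ribosomal level 0.19, -0.00 and -0.19. The average over the 26 genes was -0.02, -0.00 and 0.02 there. The part of transcript length, read share and ribosomal level in the result was not tested.

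**Figure D5:**
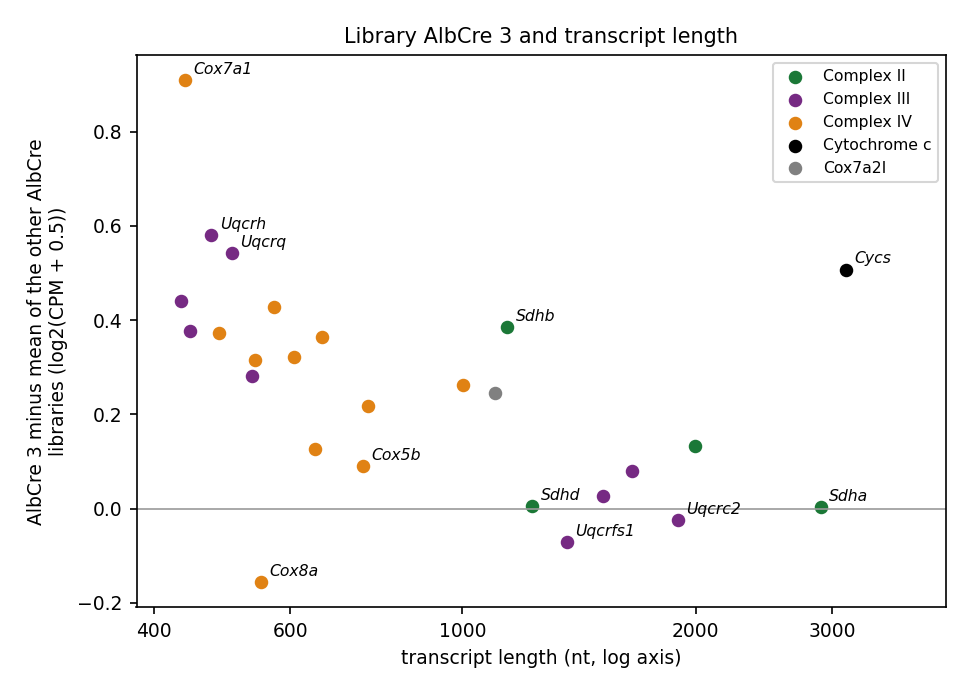
Difference of AlbCre 3 from the mean of the other 3 AlbCre libraries (log2(CPM + 0.5)) against transcript length on a log axis, one point for each of the 26 tested genes, coloured by complex. Most transcripts under 800 nt lie between 0.1 and 0.6, most longer ones nearer 0, and Cycs and Cox8a lie apart.

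Length classes, chosen after the values were seen, were set beside all tested genes of the same class with a mean log2 CPM above 4. That bound was not applied to the genes of the set, which include the scarce Cox7a1 under 800 nt. Genes of the set above the bound were also part of the background. Under 800 nt, the 15 genes of the set had a median log2 fold change of 0.26, against 0.10 for 273 genes. From 800 to 1600 nt, the 6 genes of the set had 0.12, against 0.04 for 1068 genes. From 1600 to 3200 nt, the 5 genes of the set (Sdha, Sdhc, Uqcrc1, Uqcrc2 and Cycs) had 0.28, against -0.00 for 2661 genes. With a length trend removed from each library, the median of all 26 was 0.16 and 22 of the 26 were above 0. Across the 26 genes, the log2 fold change of AlbCre over control correlated with log2 length at r = -0.01 and rho = -0.10. Without Cox7a1 these were 0.13 and 0.01.

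Other genes of the respiratory chain were read from the same fit. Of 38 assembly factors of complexes II to IV, 36 were tested, 1 rose, 0 fell and 35 did not pass, with a median log2 fold change of 0.07. The gene that rose was Cox17, the copper chaperone that delivers copper for complex IV. Cox17 had 24.5, 21.8, 31.3 and 24.9 CPM in AlbCre 1 to 4, against 17.1, 15.9 and 16.8 CPM in controls. Its groups did not overlap and the log2 fold change was 0.63 (edgeR, SE 0.14, adjusted p = 0.0471). The call was lost without control 1 (adjusted p = 0.142), control 2 (0.184), AlbCre 1 (0.0918), AlbCre 3 (0.0903) or AlbCre 4 (0.117) in the edgeR fit. Limma-voom (0.0914), edgeR without robust estimation (0.0525), the length offset (0.0562), the acute phase covariate (0.115), control 3 as the lone control (0.365) and the replicate block (0.152) also gave adjusted p-values above 0.05, while DESeq2 gave 0.00317. The log2 fold change of Cox17 stayed close to that with all libraries in these fits, at 0.57 with the length offset, 0.65 with the covariate, 0.61 with the lone control and 0.63 with the block. Cox19, another factor of copper delivery to complex IV, had 42.8, 28.7, 48.0 and 40.2 CPM in AlbCre 1 to 4, against 22.6, 24.4 and 30.8 CPM in controls, with a log2 fold change of 0.62 (edgeR, SE 0.18, adjusted p = 0.105), and passed in DESeq2 (adjusted p = 0.0294) and in edgeR without control 3 (0.0356) or without AlbCre 2 (0.0265).

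Ndufa4, first described in complex I and now counted as a complex IV subunit, had 210, 218, 280 and 225 CPM in AlbCre 1 to 4, against 198, 183 and 183 CPM in controls. Its log2 fold change was 0.31 (edgeR, SE 0.13, adjusted p = 0.240). Of the 36 complex I subunits, 35 were tested and 0 passed in edgeR, DESeq2 or limma-voom. With a median of 0.18, 32 were above 0 (91.4%), against 48.9% of all genes. Higher at an unadjusted p under 0.05 in edgeR were 4 (11.4%), against 9.34% of all genes. The smallest p was that of Ndufv1, a subunit of the NADH-binding module, at 142 ± 13.6 CPM (SD, n = 4) in AlbCre and 116 ± 7.43 CPM (SD, n = 3) in controls. Of the 16 genes listed for ATP synthase, 15 were above 0 (93.8%) with a median of 0.20, and 0 passed in edgeR or limma-voom. At an unadjusted p under 0.05 in edgeR 2 were higher (12.5%), again against 9.34% of all genes. Atp5c1, the gamma subunit of the rotor, at 218 ± 5.87 CPM (SD, n = 4) in AlbCre and 181 ± 7.69 CPM (SD, n = 3) in controls, passed in DESeq2, as did Atp5b, the catalytic beta subunit, named after its values were seen.

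Among 15 regulators of respiratory genes, 14 were tested, 1 rose and 13 did not pass, with a median log2 fold change of -0.05. Esrra, a nuclear receptor that drives respiratory genes, had 30.6, 31.9, 34.3 and 34.2 CPM in AlbCre 1 to 4, against 22.4, 23.9 and 24.8 CPM in controls. The groups were well apart (log2 fold change 0.47, SE 0.10, adjusted p = 0.0414 in edgeR), but the call held only without control 3 among the 7 fits that left out 1 library, whose edgeR adjusted p ran from 0.0226 to 0.158. Limma-voom (adjusted p = 0.0695), the length offset (0.0605), the acute phase covariate (0.141), the lone control 3 (0.399) and the replicate block (0.202) also lost it, while DESeq2 kept it (0.00277). The log2 fold change of Esrra was 0.43 with the covariate, 0.40 with the lone control and 0.45 with the block. Ppargc1a, the coactivator of this programme, had 10.2, 14.6, 10.7 and 13.1 CPM in AlbCre 1 to 4, against 14.3, 25.9 and 14.1 CPM in controls, with a log2 fold change of -0.58 (edgeR, SE 0.23, adjusted p = 0.229). Of 61 cytosolic ribosomal protein genes, 59 were tested and 0 passed in edgeR, DESeq2 or limma-voom, with a median of -0.06. At an unadjusted p under 0.05 in edgeR 2 of the 59 were lower, where 8.67% of all genes were. For the 26 acute phase genes the median was -1.44, where Itih4 and Saa3 fell in edgeR, 0 passed in limma-voom and 17 in DESeq2. Both calls were lost on leaving out any library other than control 3, with adjusted p from 0.0633 to 0.178 for Itih4 and from 0.0587 to 0.200 for Saa3, and without controls 1 and 2 the log2 fold change was -0.41 for Itih4 and -0.53 for Saa3. After adding the acute phase score to the model the median of the 26 tested genes of complexes II to IV, cytochrome c and Cox7a2l was 0.24, and 0.19 when controls 1 and 2 were left out.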

How the data were processed

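The authors deposited raw read counts for each gene symbol, with 1 column for each of 7 libraries, and 0 columns stayed unused. Per the labels' protocols, poly(A) RNA from frozen liver was made into directional libraries and read from 1 end over 75 nt. The submitters' processing notes name STAR, DESeq2 and mm10, with neither role nor version. Which counter, strand setting and annotation were used is not given in the sources used here. Entries for ambiguous reads (0.433% to 0.575% of a library) and reads in no feature (8.62% to 16.3%) stayed out of library sizes and tests.

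Sample titles gave the groups. Differences were tested with edgeR 4.0.16 in R 4.3.3, using TMM factors, filterByExpr (minimum count 10), robust glmQLFit and its F test, two-sided, adjusted by Benjamini-Hochberg over 13638 genes at 0.05. Each SE belongs to the log2 fold change of that fit. The p-values weigh the group difference against the spread between these mice, and replicates differed beyond sampling noise (lowest chi-square over degrees of freedom 38.8). The edgeR step was tested on simulated data. Isoform ratios used a prior count of 0.5 and SciPy 1.17.1. Library averages used log2(CPM + 0.5).

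Gene lengths and coordinates are from GENCODE M21 on GRCm38, the mm10 assembly: 23376 symbols matched by name, 645 by synonym and 400 not at all. A gene's length is the median of its basic protein-coding transcripts, or of its other transcripts where it has none. Promoter sequences are from RefSeq.

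The members, gene lists and most choices were made with earlier results of these data known, so none is independent of them. Values in every library are given for the most abundant gene and the 2 genes with the smallest p of each complex, for Cycs, Cox7a2l and the isoform pairs. At most 2 genes are named from each other respiratory, ribosomal or acute phase list. Cell type markers were named outside this rule, and Uqcrq and Atp5b were named after their values were seen. Tried as alternatives were DESeq2 1.42.0, limma-voom (limma 3.58.1), upper-quartile or RLE factors, no robust estimation, other filters, a replicate block, each library left out, a length offset (loess span 0.5), an acute phase covariate, control 3 as the lone control, thinning to 23807580 reads, and a threshold of 0.10. Figures were drawn with matplotlib 3.10.9.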

Additional observations from a re-analysis of the deposited data

How the results depend on the processing

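In 493 fits of the 26 genes under the alternatives no call changed, the smallest adjusted p was 0.0583 (edgeR without control 3), and 486 kept the direction. The direction turned for Sdhd (-0.030 with the length offset and -0.0028 with control 3 as the lone control), Cox7b (-0.0036 and -0.020 in the same settings) and Cox7a2l (-0.040 with the length offset, and between -0.10 and 0.19 when 1 library was left out). Members higher at an unadjusted p under 0.05, 8 with all libraries, were 4 with upper-quartile factors, 5 with the replicate block, 1 with the length offset, 3 with the acute phase score, 1 with control 3 as the lone control and 2 to 11 with 1 library left out. Members lower at that p were 1 with the length offset and 0 to 1 with 1 library left out. The complex II median was 0.16 with the acute phase score and 0.10 with control 3 as the lone control. In the same settings it was 0.16 and 0.14 for complex III, and 0.24 and 0.20 for complex IV. With the length offset the medians were 0.17 for complex II, 0.17 for complex III and 0.15 for complex IV. With 1 library left out the medians ran from 0.17 to 0.28 for complex II, 0.19 to 0.28 for complex III, 0.16 to 0.31 for complex IV and 0.17 to 0.28 for all members.

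Over all genes 172 were higher and 130 lower. These counts were 620 and 516 in DESeq2, 70 and 67 in limma-voom, 50 and 24 with the replicate block, 90 and 67 with the acute phase score, 5 and 4 with control 3 as the lone control, which is then assumed to vary like the AlbCre libraries, 426 and 341 at an adjusted p under 0.10, and 21 to 659 higher and 10 to 651 lower with 1 library left out (fewest without control 2, most without control 3). Same-numbered libraries did not deviate together (correlations -0.05, 0.07 and -0.14), so the replicate block pairs numbers only, and not every library correlated best with its own number. With a prior count of 2 the log2 ratio differences were -0.090 for Cox6a2 to Cox6a1 and -0.24 for Cox6b2 to Cox6b1. With 1 library left out the ratio differences ran from -0.14 to 1.91 for Cox6a2 to Cox6a1, -1.08 to 1.47 for Cox6b2 to Cox6b1, -0.0039 to 0.52 for Cox7a1 to Cox7a2 and -2.18 to -0.32 for Cox8b to Cox8a. The ratio of complex IV to complex II, 0.04 as a mean of log2 levels, was -0.022 as a sum of CPM. The cause of these shifts was not tested. Depth limits the tissue isoforms only, since the other genes had 373 reads or more in every library.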
